A study of Mus musculus with 12 samples.

Results

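The genes described here are Map3k8, which codes for a kinase of the ERK pathway, and 8 immediate early genes that are known targets of that pathway: Fos, Fosl2, Jun, Junb, Egr1, Egr2, Ier2 and Ier3. They were chosen by name, as probe sets annotated to 1 of these symbols and to no other gene, and all 9 were measured among the 12393 genes on the arrays. Jun and Egr2 each had 2 probe sets, and the brighter of the pair over all arrays was taken as the main one. The cells were macrophages grown from mouse bone marrow of the strain 129-SvEv-Tac for 5 days, with 10% serum and 30% medium from L cells, which secrete the growth factor M-CSF. In p50-/-IL10-/- cells both Nfkb1, the gene for the p50 and p105 proteins, and Il10 are knocked out. IL10-/- cells lack Il10 alone, so every group lacks IL-10 of its own, and no wild-type cells were measured. Cells of each genotype were left unstimulated, or were given 1 ng/ml lipopolysaccharide (LPS, from bacterial cell walls), or the same LPS together with IL-10 at 0.3 ng/ml. RNA came from cells 4 h later, and 6 µg went onto each of the 12 Affymetrix arrays, with 2 biological replicates in each of the 6 groups per the labels. The sources used here do not say whether replicates were separate animals or cultures, and p-values rest on the spread between these samples, which may be technical. The Nfkb1 knockout in p50-/-IL10-/- cells removes p50 and p105 together, and Nfkb1 transcripts were not analysed here.

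In macrophages, p105 holds Map3k8 (also called Tpl2 or Cot) in a complex that keeps the kinase stable and restrains it. When LPS engages its receptor, p105 is degraded and Map3k8 is released to phosphorylate MEK, which activates ERK. ERK and the kinases below it act on serum response factor, its ETS-family partners and CREB at the promoters of immediate early genes, whose transcripts typically climb within minutes and decline within hours. Protein p50 in turn pairs with other NF-kB subunits at kB sites or binds them as a repressive dimer. The arrays measured transcripts only, and ERK activity and Map3k8 protein were not measured. The question taken up here is which of these genes were low in cells without p50 and p105.

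The RefSeq promoter table for build GRCm38.p6 held entries for 6 of the 9 members, namely Fos, Fosl2, Jun, Junb, Egr2 and Ier3. The windows of 3 of them are shown, each the 250 bases before a RefSeq transcript start and on the + strand: Fos and Ier3, the members lower without p50 at all 3 stimuli, and Egr2, a member higher without p50 in LPS with IL-10. The Fos window is chr12:85473640-85473889, the Ier3 window is chr17:35821463-35821712, and the Egr2 window is chr10:67537620-67537869, 1 of 5 overlapping or alternative windows of that gene. Capitals mark matches to the 5 motifs searched on both strands.
Fos: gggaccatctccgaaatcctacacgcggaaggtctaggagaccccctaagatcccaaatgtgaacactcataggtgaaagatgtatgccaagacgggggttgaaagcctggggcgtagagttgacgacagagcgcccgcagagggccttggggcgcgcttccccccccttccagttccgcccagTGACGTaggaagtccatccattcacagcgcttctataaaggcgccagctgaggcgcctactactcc
Ier3: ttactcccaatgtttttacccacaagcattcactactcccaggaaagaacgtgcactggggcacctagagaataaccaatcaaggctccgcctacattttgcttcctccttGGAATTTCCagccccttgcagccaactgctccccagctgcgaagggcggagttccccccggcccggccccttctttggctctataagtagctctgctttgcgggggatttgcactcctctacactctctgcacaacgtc
Egr2: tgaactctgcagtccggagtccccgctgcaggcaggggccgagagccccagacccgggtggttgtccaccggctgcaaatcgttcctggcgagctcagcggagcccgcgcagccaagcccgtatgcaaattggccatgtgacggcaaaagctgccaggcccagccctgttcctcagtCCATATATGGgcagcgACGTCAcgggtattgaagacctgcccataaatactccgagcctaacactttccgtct
The motifs were TGACGT (CREB/ATF), GGNNTTTCC (a kB type), TGANTCA (AP-1), GCGNGGGCG (EGR) and the CArG box, the core bound by serum response factor. They were picked with these sequences in view. Fos held TGACGT, 66 to 61 bases before its start. Ier3 held GGNNTTTCC, 139 to 131 bases before its start. The Egr2 window held a CArG box 73 to 64 bases before the start, and TGACGT on the other strand 57 to 52 bases before it. The windows of Egr2 that are not shown differed. One matched no motif, another held a CArG box of other letters without TGACGT, and the rest held the same pair of motifs as the window shown. Across 32851 windows of the same length, a CArG box was found in 1.47%, TGACGT in 6.47%, GGNNTTTCC in 4.93%, TGANTCA in 6.75% and GCGNGGGCG in 4.7%. Fosl2 matched GCGNGGGCG alone, and the windows of Jun and Junb matched none of the 5 motifs. A match describes these letters and does not show binding. Bases further upstream than these 250 were not searched, so a motif without a match here may still lie outside the window.

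The arrays were even in scale. Medians lay between 6.92 and 6.96 log2, lower quartiles between 5.80 and 5.94 log2, and the correlation of 2 arrays in a group was 0.992 to 0.997. All 9 macrophage markers, such as Csf1r and Cd68, were bright, with means of 9.31 to 14.05 log2, and their summed linear level was 55772 to 58977 in p50-/-IL10-/- arrays and 54519 to 61095 in IL10-/- arrays. Single macrophage markers differed all the same. In LPS cells 2 were called higher without p50 (Mertk by 1.29 log2 and Cd68 by 0.30 log2) and 1 lower (Adgre1 by 0.63 log2). In LPS with IL-10, 1 was higher (Mertk by 1.62 log2) and 2 lower (Itgam by 1.05 log2 and Adgre1 by 0.57 log2). Of all genes, 1.31%, 6.72% and 10.4% were called lower in unstimulated, LPS and LPS with IL-10 cells, and 1.26%, 5.66% and 7.58% higher. Neutrophil markers were lower without p50: 6, 7 and 5 of 8 passed the test at those stimuli. The neutrophil markers' summed level was 3237 to 4054 in p50-/-IL10-/- arrays, against 5979 to 7476 in IL10-/- arrays. The stromal markers summed to 332 to 429 in p50-/-IL10-/- arrays, against 473 to 808 in IL10-/- arrays, and 1, 2 and 1 of 6 were called lower at the 3 stimuli, led by the matrix gene Dcn. In LPS cells 1 stromal marker, Pdgfrb, was called higher without p50 (0.47 ± 0.12 log2, limma adjusted p = 0.0252), and both of these genes were named after their values were seen. Markers of dendritic, B, T and NK, mast and erythroid cells had no calls at any stimulus, except that 2 of 4 dendritic cell markers were called higher without p50 in LPS with IL-10. The part of neutrophil and stromal RNA in the genotype differences below was not tested, and in bulk samples fewer cells of a type and less RNA per cell cannot be told apart.

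Values below are log2 levels of the main probe set, given as the 2 arrays of each group, and they compare a gene with itself across groups. Differences are means of 2 arrays minus means of 2 arrays, with the SE of a limma fit over all 12 arrays. A gene was called where the adjusted p (Benjamini-Hochberg over 12393 genes, two-sided) was under 0.05. With 2 arrays against 2, groups that do not differ lie apart in a share of 0.333 of cases. Statements on overlap below are therefore description only.

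Map3k8, the MEK kinase that p105 binds, was induced by LPS in both genotypes and was not low without p50. Unstimulated cells had 7.98 and 7.92 log2 in p50-/-IL10-/- arrays and 7.97 and 7.56 log2 in IL10-/- arrays. With LPS the levels were 9.47 and 9.26 log2 in p50-/-IL10-/- arrays and 9.17 and 8.41 log2 in IL10-/- arrays. With LPS and IL-10 they were 9.09 and 9.15 log2 in p50-/-IL10-/- arrays and 8.76 and 8.73 log2 in IL10-/- arrays. Both p50-/-IL10-/- arrays thus lay above both IL10-/- arrays with either stimulus, and the genotypes overlapped without one. No genotype difference at a single stimulus was called by limma in the fit of all arrays, with adjusted p = 0.799 unstimulated, 0.0991 in LPS and 0.234 in LPS with IL-10. The difference in LPS with IL-10 (0.37 log2) was called where only its own groups were fitted (limma adjusted p = 0.0285). The LPS difference was 0.58 ± 0.20 log2, and it turned on the IL10-/- LPS arrays: it was 0.95 log2 without replicate 1 of them (adjusted p = 0.00358) and 0.20 log2 without replicate 2 (adjusted p = 0.504). Averaged over the 3 stimuli, Map3k8 was 0.38 ± 0.12 log2 higher in p50-/-IL10-/- cells (limma adjusted p = 0.0386). Leaving out 1 array at a time ended that call in 9 of 12 fits (adjusted p up to 0.104). In the order of the 6 groups, p50-/-IL10-/- cells with LPS were highest, with no overlap to the next group. Below them came p50-/-IL10-/- cells with LPS and IL-10, IL10-/- cells with LPS and IL10-/- cells with LPS and IL-10, and neighbours among these 3 overlapped. All 4 stimulated groups lay above both unstimulated groups.

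**Figure D1:**
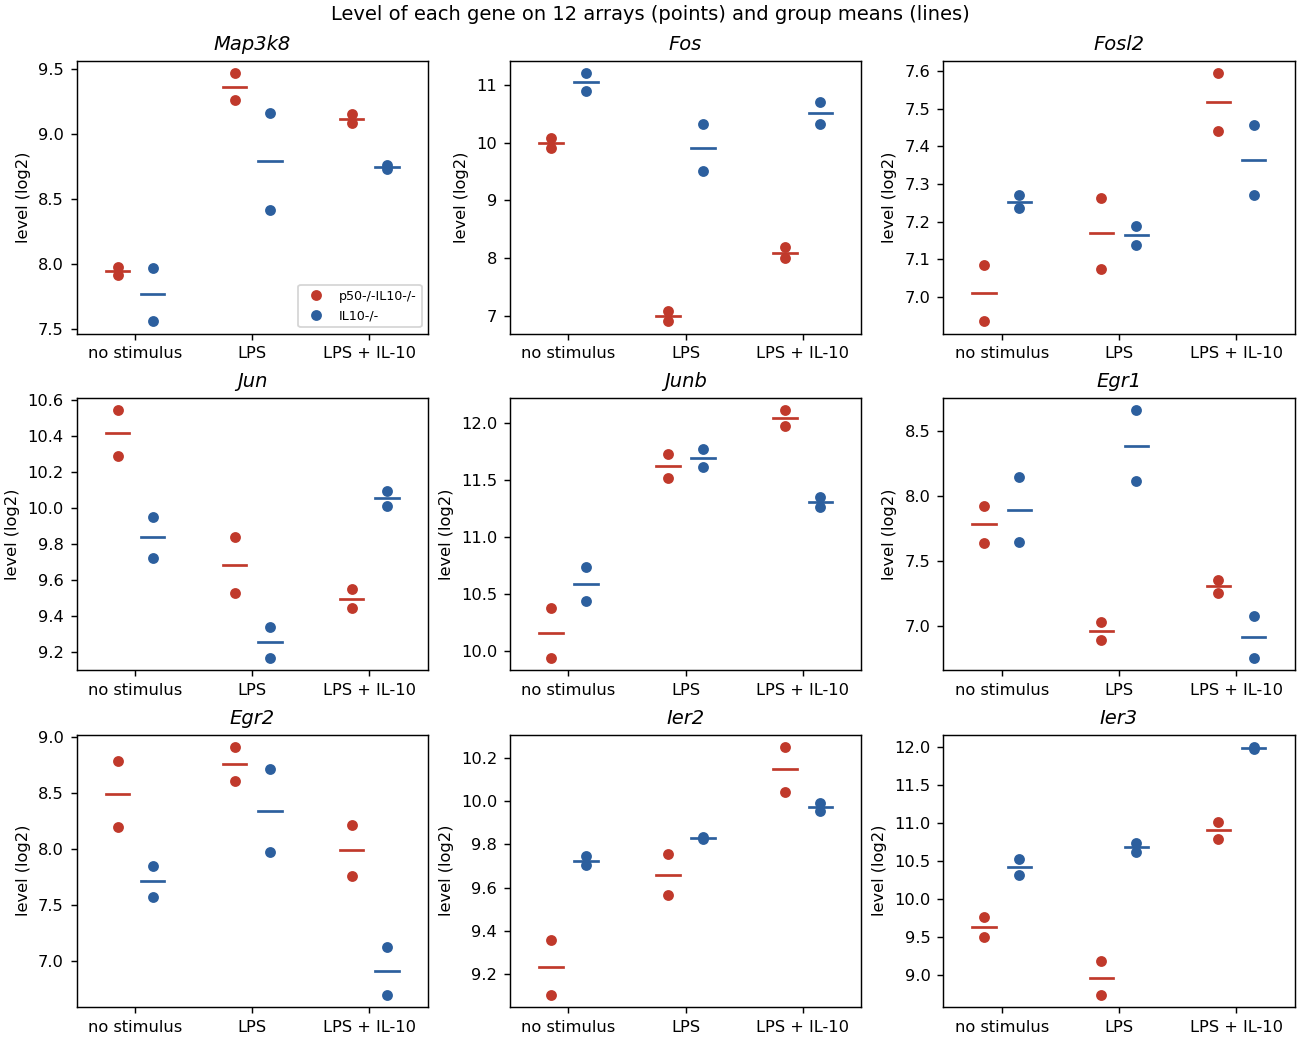
Log2 level (y axis) of each of the 9 genes at no stimulus, LPS and LPS with IL-10 (x axis), with 1 point for each of 2 arrays and a line at their mean, p50-/-IL10-/- cells on the left of each pair and IL10-/- cells on the right; each y axis has its own range. Fos and Ier3 are lower in p50-/-IL10-/- cells at all 3 stimuli with no overlap, and Egr1 is lower there in LPS.

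Fos, a partner of Jun proteins in AP-1, had the largest genotype differences of the 9 genes. In unstimulated cells it had 9.91 and 10.07 log2 in p50-/-IL10-/- arrays and 11.20 and 10.89 log2 in IL10-/- arrays. In LPS cells it had 6.91 and 7.08 log2 in p50-/-IL10-/- arrays, about the median of all genes, and 10.33 and 9.50 log2 in IL10-/- arrays. With LPS and IL-10 it had 8.19 and 8.01 log2 in p50-/-IL10-/- arrays and 10.71 and 10.33 log2 in IL10-/- arrays. At each stimulus both arrays without p50 lay below both arrays with it. Fos was 2.07-fold lower unstimulated (-1.05 ± 0.23 log2, limma adjusted p = 0.039), 7.58-fold lower in LPS (-2.92 ± 0.23 log2, adjusted p = 4.65e-05) and 5.38-fold lower in LPS with IL-10 (-2.43 ± 0.23 log2, adjusted p = 9.99e-05). The calls in LPS and in LPS with IL-10 held in each alternative fit, and the unstimulated call was lost when any 1 of its 4 arrays was left out, with adjusted p of 0.105 to 0.226. Across the groups Fos was highest in unstimulated IL10-/- cells and lowest in p50-/-IL10-/- cells with LPS. Unstimulated p50-/-IL10-/- cells overlapped with LPS-treated IL10-/- cells, and no other neighbours in that order overlapped.

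Neutrophil and stromal markers differed between the genotypes on the same arrays. The mean of the neutrophil list in LPS cells was 8.13 and 8.15 log2 in p50-/-IL10-/- arrays and 8.72 and 8.71 log2 in IL10-/- arrays. The mean of the stromal list in LPS cells was 5.77 and 5.73 log2 in p50-/-IL10-/- arrays and 6.09 and 6.57 log2 in IL10-/- arrays. Within the IL10-/- groups the second array had the higher stromal mean and the lower Fos level at all 3 stimuli. Its neutrophil mean was lower unstimulated and in LPS with IL-10. In LPS the neutrophil means of the 2 IL10-/- arrays were nearly equal. Bright single markers stood the other way there, such as S100a8 with 11.18 and 11.31 log2 on IL10-/- arrays 1 and 2. The neutrophil means of IL10-/- arrays 1 and 2 were 8.72 and 8.67 log2 unstimulated and 8.58 and 8.54 log2 in LPS with IL-10. In p50-/-IL10-/- cells the neutrophil list mean was 7.97 and 7.95 log2 unstimulated. The part of these cells in the Fos difference was not tested.

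**Figure D2:**
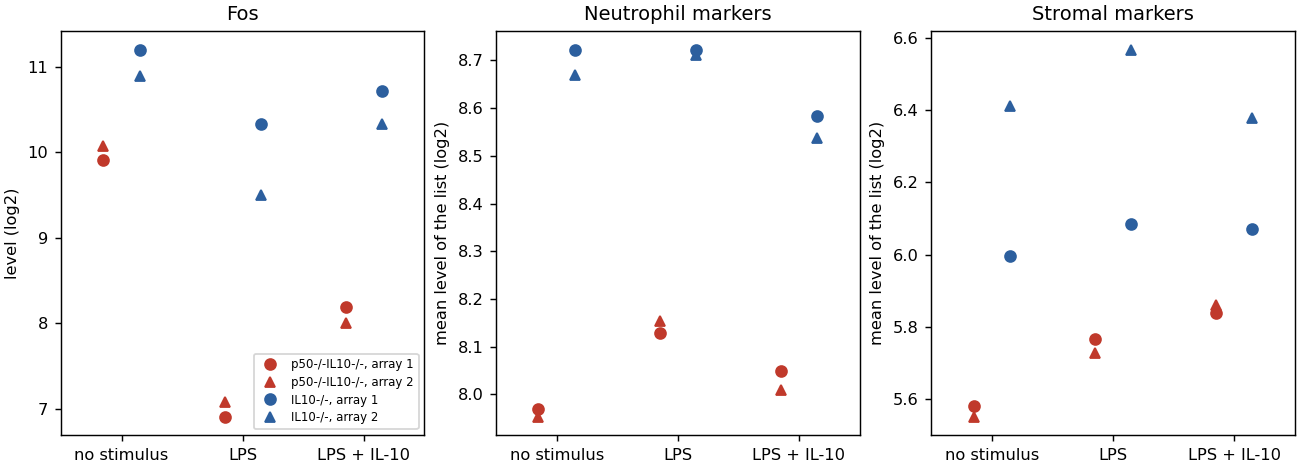
Log2 level of Fos (left), mean log2 level of 8 neutrophil markers (middle) and of 6 stromal markers (right) on each array at 3 stimuli, with p50-/-IL10-/- arrays in red and IL10-/- arrays in blue, circles for array 1 and triangles for array 2. All 3 are lower without p50, and of each pair of IL10-/- arrays, array 1 has more Fos and a lower stromal mean. The neutrophil mean of array 1 is higher unstimulated and in LPS with IL-10, and nearly equal to that of array 2 in LPS.

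Ier3, a stress-response gene that promotes or restrains cell death depending on context, was also lower without p50 at all 3 stimuli. Unstimulated levels were 9.76 and 9.50 log2 in p50-/-IL10-/- arrays and 10.31 and 10.52 log2 in IL10-/- arrays. In LPS cells they were 9.19 and 8.74 log2 in p50-/-IL10-/- arrays and 10.62 and 10.73 log2 in IL10-/- arrays. With IL-10 as well they were 10.79 and 11.01 log2 in p50-/-IL10-/- arrays and 11.99 and 11.97 log2 in IL10-/- arrays. The genotypes did not overlap at any stimulus, and IL-10-treated cells were highest in both. The differences were 1.72-fold unstimulated (-0.78 ± 0.15 log2, limma adjusted p = 0.0199), 3.27-fold in LPS (-1.71 ± 0.15 log2, adjusted p = 9.39e-05) and 2.12-fold in LPS with IL-10 (-1.08 ± 0.15 log2, adjusted p = 0.000985). The unstimulated call was lost without replicate 2 of the IL10-/- arrays (adjusted p = 0.177) or without replicate 2 of the p50-/-IL10-/- arrays (adjusted p = 0.195). No neighbouring groups in the order of Ier3 levels overlapped.

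Egr1, a zinc finger factor and a classical ERK target, was lower without p50 in LPS cells. Unstimulated arrays had 7.64 and 7.93 log2 in p50-/-IL10-/- cells and 8.15 and 7.64 log2 in IL10-/- cells. LPS arrays had 6.89 and 7.03 log2 in p50-/-IL10-/- cells and 8.66 and 8.12 log2 in IL10-/- cells. LPS with IL-10 gave 7.36 and 7.26 log2 in p50-/-IL10-/- cells and 7.08 and 6.75 log2 in IL10-/- cells. The genotypes overlapped without stimulus, were far apart in LPS, and stood in the opposite order in LPS with IL-10. The LPS difference was 2.69-fold (-1.43 ± 0.20 log2, limma adjusted p = 0.00146) and held in each alternative fit. The differences unstimulated (-0.11 ± 0.20 log2, adjusted p = 0.889) and in LPS with IL-10 (0.39 ± 0.20 log2, adjusted p = 0.207) were not called. The average over stimuli was -0.38 ± 0.12 log2 (adjusted p = 0.0342), a call that 8 of 12 fits without 1 array did not make (adjusted p up to 0.0984).

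Egr2, a relative of Egr1 with a role in myeloid development, stood the other way. It had 8.20 and 8.79 log2 unstimulated in p50-/-IL10-/- arrays and 7.57 and 7.85 log2 in IL10-/- arrays. In LPS it had 8.61 and 8.91 log2 in p50-/-IL10-/- arrays and 7.97 and 8.71 log2 in IL10-/- arrays. IL-10-treated cells had 8.22 and 7.76 log2 in p50-/-IL10-/- arrays and 6.70 and 7.13 log2 in IL10-/- arrays. The genotypes overlapped in LPS alone. Egr2 was 2.11-fold higher without p50 in LPS with IL-10 (1.07 ± 0.27 log2, limma adjusted p = 0.0214) and 1.69-fold higher on average (0.76 ± 0.16 log2, adjusted p = 0.00503). The first of these calls was lost without replicate 1 of the IL10-/- arrays (adjusted p = 0.117) or of the p50-/-IL10-/- arrays (adjusted p = 0.142), and the average held in each alternative fit. The dimmer probe set of Egr2 gave 0.93 ± 0.22 log2 in LPS with IL-10 (limma adjusted p = 0.0187) and 0.62 ± 0.13 log2 on average (adjusted p = 0.00547).

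Jun and Junb, the AP-1 partners of Fos, differed by genotype in LPS with IL-10, in opposite directions. Jun had 9.44 and 9.55 log2 there in p50-/-IL10-/- arrays and 10.10 and 10.01 log2 in IL10-/- arrays. Junb had 12.12 and 11.98 log2 there in p50-/-IL10-/- arrays and 11.26 and 11.36 log2 in IL10-/- arrays. Neither gene overlapped between genotypes. Jun was 1.47-fold lower (-0.56 ± 0.13 log2, limma adjusted p = 0.0149), and its second probe set differed by -0.68 ± 0.10 log2 (adjusted p = 0.00214). The Jun call at the main probe set was lost when any 1 of its 4 arrays was left out, with adjusted p of 0.0543 to 0.093. Junb was 1.67-fold higher (0.74 ± 0.15 log2, limma adjusted p = 0.00776), a call lost without replicate 1 of the p50-/-IL10-/- arrays (adjusted p = 0.0598).

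In LPS cells Jun had 9.84 and 9.53 log2 in p50-/-IL10-/- arrays and 9.17 and 9.34 log2 in IL10-/- arrays, and the difference of 0.43 ± 0.13 log2 was not called (limma adjusted p = 0.0566). That difference passed the threshold without replicate 2 of the p50-/-IL10-/- LPS arrays (0.59 log2, adjusted p = 0.0348) and with each array centred on its median (adjusted p = 0.0444), and it was 0.27 log2 without replicate 1 of the p50-/-IL10-/- LPS arrays (adjusted p = 0.353). Junb had 11.52 and 11.73 log2 in p50-/-IL10-/- LPS arrays and 11.77 and 11.61 log2 in IL10-/- LPS arrays, which overlapped (-0.070 ± 0.15 log2, adjusted p = 0.843). Unstimulated, Jun had 10.55 and 10.29 log2 in p50-/-IL10-/- arrays and 9.95 and 9.72 log2 in IL10-/- arrays. Here the 2 probe sets of Jun parted. The main one was 0.58 ± 0.13 log2 higher without p50 (limma adjusted p = 0.0459), and the dimmer one differed by 0.14 ± 0.10 log2 (adjusted p = 0.638). The unstimulated call was lost without any 1 of its 4 arrays (adjusted p of 0.0578 to 0.331), and the direction over all stimuli was not stable: -0.0085 log2 with both probe sets averaged, against 0.15 log2 at the main one. Unstimulated Junb had 9.94 and 10.37 log2 in p50-/-IL10-/- arrays and 10.73 and 10.44 log2 in IL10-/- arrays, without overlap, at -0.43 ± 0.15 log2 (adjusted p = 0.204).

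Ier2, a small nuclear protein of the immediate early response, was lower without p50 in unstimulated cells. It had 9.10 and 9.36 log2 in p50-/-IL10-/- arrays and 9.75 and 9.70 log2 in IL10-/- arrays. In LPS it had 9.56 and 9.75 log2 in p50-/-IL10-/- arrays and 9.82 and 9.83 log2 in IL10-/- arrays. With LPS and IL-10 it had 10.25 and 10.04 log2 in p50-/-IL10-/- arrays and 9.99 and 9.95 log2 in IL10-/- arrays. The mean difference went from below 0 to above 0 across the 3 stimuli, without overlap of arrays at any of them. Its 95% interval included 0 in LPS (-0.40 to 0.064 log2) and in LPS with IL-10 (-0.058 to 0.41 log2). The change of side is thus not established. The unstimulated difference was 1.41-fold (-0.49 ± 0.11 log2, limma adjusted p = 0.0358), a call lost when any 1 of its 4 arrays was left out, with adjusted p of 0.0521 to 0.25. In LPS the difference was -0.17 ± 0.11 log2 (adjusted p = 0.373) and in LPS with IL-10 it was 0.18 ± 0.11 log2 (adjusted p = 0.275).

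Fosl2, a Fos relative that accumulates later than Fos in many cells, varied least. Its 12 values lay within a narrow band, with 6.94 and 7.09 log2 unstimulated in p50-/-IL10-/- arrays and 7.27 and 7.24 log2 in IL10-/- arrays. In LPS it had 7.26 and 7.08 log2 in p50-/-IL10-/- arrays and 7.19 and 7.14 log2 in IL10-/- arrays. Cells with LPS and IL-10 had 7.59 and 7.44 log2 in p50-/-IL10-/- arrays and 7.46 and 7.27 log2 in IL10-/- arrays. The genotypes overlapped in both stimulated conditions. No genotype difference of Fosl2 was called by limma. The 95% interval of the LPS difference ran from -0.21 to 0.23 log2. Unstimulated, where the genotypes did not overlap, the difference was -0.24 log2 (95% interval -0.46 to -0.022 log2, limma adjusted p = 0.298).

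Over the 9 genes, the direction of the genotype difference thus differed between genes, and the genes called differed between stimuli. Jun alone was called in both directions, unstimulated and in LPS with IL-10, and neither of its calls held with 1 array left out. Unstimulated, 3 were called lower and 1 higher without p50, where 2.57% of all genes were called in either direction (1.31% lower, 1.26% higher). In LPS, 3 were called lower and 0 higher by limma (2 higher at an unadjusted p under 0.05), where 12.4% of all genes were called (6.72% lower, 5.66% higher). Fos, Ier3 and Egr1 were those 3, and the other 6 ranged from -0.17 log2 for Ier2 to 0.58 log2 for Map3k8. In LPS with IL-10, 3 were called lower (Fos, Ier3 and Jun) and 2 higher (Junb and Egr2), where 18% of all genes were called (10.4% lower, 7.58% higher). On average over stimuli, 3 were lower and 2 higher, where 25.7% of all genes were called (15.1% lower, 10.6% higher). The median difference of the 9 genes was -0.24 log2 unstimulated, -0.070 log2 in LPS and 0.18 log2 in LPS with IL-10. Over all genes the median was -0.012, -0.021 and 0.036 log2 at those stimuli.

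**Figure D3:**
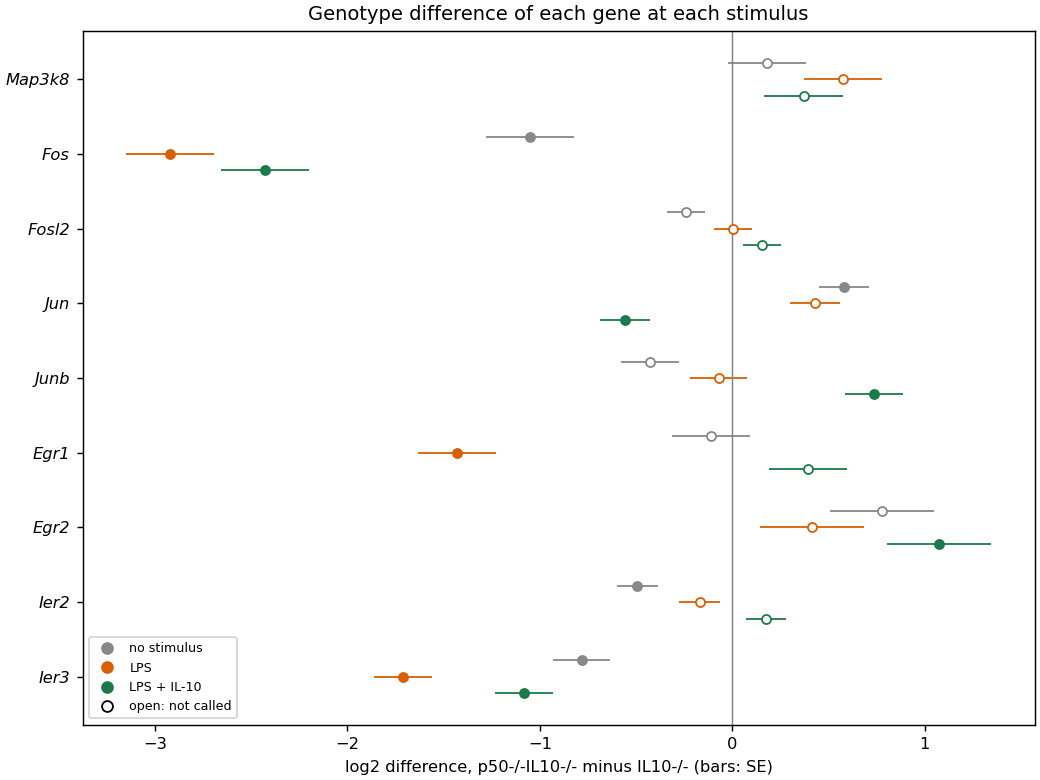
Log2 difference, p50-/-IL10-/- minus IL10-/- (x axis, bars are the SE), of each of the 9 genes (y axis) in unstimulated, LPS and LPS with IL-10 cells; filled points were called by limma at an adjusted p under 0.05. Fos lies furthest to the left at each stimulus, Ier3 is left of 0 at all 3, and Egr1 is far left of 0 in LPS only.

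LPS at 4 h left Fos lower than no stimulus in both genotypes, and left Map3k8 and Junb higher in both. Map3k8 was 1.42 ± 0.20 log2 higher with LPS in p50-/-IL10-/- cells (limma adjusted p = 0.000334) and 1.02 ± 0.20 log2 higher in IL10-/- cells (adjusted p = 0.00391). Junb was 1.47 ± 0.15 log2 higher in p50-/-IL10-/- cells (adjusted p = 3.06e-05) and 1.11 ± 0.15 log2 higher in IL10-/- cells (adjusted p = 0.000328). Jun fell in both, by 0.73 ± 0.13 log2 without p50 (adjusted p = 0.00134) and by 0.59 ± 0.13 log2 with it (adjusted p = 0.00714). Together with Fos, these were the members called in both genotypes, each in 1 direction. For Jun in IL10-/- cells the call was lost without replicate 1 of the unstimulated arrays (adjusted p = 0.0636) or of the LPS arrays (adjusted p = 0.0574). For Map3k8 in IL10-/- cells it was lost where the fit held only those 4 arrays (adjusted p = 0.0609), as it was for Fos (adjusted p = 0.051).

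Fos fell by 3.00 ± 0.23 log2 with LPS in p50-/-IL10-/- cells (7.99-fold, limma adjusted p = 4.87e-06) and by 1.13 ± 0.23 log2 in IL10-/- cells (2.18-fold, adjusted p = 0.00439). The genotype difference of these responses was -1.87 ± 0.32 log2 (adjusted p = 0.0239), and Fos was the only member called in that test, where 1.19% of all genes were called (0.452% lower, 0.734% higher). That call was lost without replicate 2 of the unstimulated IL10-/- arrays (adjusted p = 0.109), without either unstimulated p50-/-IL10-/- array (0.0799 and 0.112) or without replicate 1 of the LPS-treated ones (0.116). It was also lost where the fit held only the 8 arrays of the test (0.0631), and the difference itself lay between -2.28 and -1.46 log2 with any 1 array left out. Egr1 fell by 0.82 ± 0.20 log2 with LPS without p50 (limma adjusted p = 0.00942) and differed by 0.49 ± 0.20 log2 with p50 (adjusted p = 0.106). Ier3 fell by 0.67 ± 0.15 log2 without p50 (adjusted p = 0.00554) and differed by 0.26 ± 0.15 log2 with p50 (adjusted p = 0.258). For both the responses pointed in opposite directions, but the test of the difference was not called, at -1.32 ± 0.29 log2 for Egr1 (limma adjusted p = 0.0643) and -0.93 ± 0.21 log2 for Ier3 (adjusted p = 0.0789). The Egr1 test passed the threshold without replicate 1 of the unstimulated (adjusted p = 0.0417) or replicate 2 of the LPS-treated IL10-/- arrays (adjusted p = 0.0298), with adjusted p up to 0.255 without another array. The Ier3 test passed it without replicate 1 of the LPS-treated p50-/-IL10-/- arrays (adjusted p = 0.0484), with adjusted p up to 0.272 without another array. The Egr1 fall without p50 was lost without replicate 2 of the unstimulated arrays (adjusted p = 0.0861) or replicate 1 of the LPS arrays (adjusted p = 0.0664), and the Ier3 fall without replicate 1 of the unstimulated arrays (adjusted p = 0.0566).

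Counted over the 9 genes, LPS in p50-/-IL10-/- cells raised 3 (Map3k8, Junb and Ier2) and lowered 4 (Fos, Jun, Egr1 and Ier3), where 32.4% of all genes were called (10.3% higher, 22.1% lower). In IL10-/- cells it raised 2 (Map3k8 and Junb) and lowered 2 (Fos and Jun), where 24.8% of all genes were called (7.76% higher, 17.1% lower). Ier2 rose by 0.43 ± 0.11 log2 without p50 (limma adjusted p = 0.00967) and differed by 0.10 ± 0.11 log2 with p50 (adjusted p = 0.552). The Ier2 call was lost without replicate 1 of the unstimulated (adjusted p = 0.0924) or replicate 2 of the LPS arrays (adjusted p = 0.0809). Egr2 differed by 0.27 ± 0.27 log2 without p50 and by 0.63 ± 0.27 log2 with p50, neither of which was called (limma adjusted p = 0.527 and 0.123). With p50, the Egr2 response was 1.00 log2 without replicate 1 of the LPS arrays (adjusted p = 0.0337) and 0.26 log2 without replicate 2 (adjusted p = 0.532). That of Egr1 passed the threshold without replicate 1 of the unstimulated (0.75 log2, adjusted p = 0.0398) or replicate 2 of the LPS arrays (0.77 log2, adjusted p = 0.021), and was 0.24 and 0.22 log2 without the other array of each pair (adjusted p = 0.553 and 0.577).

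**Figure D4:**
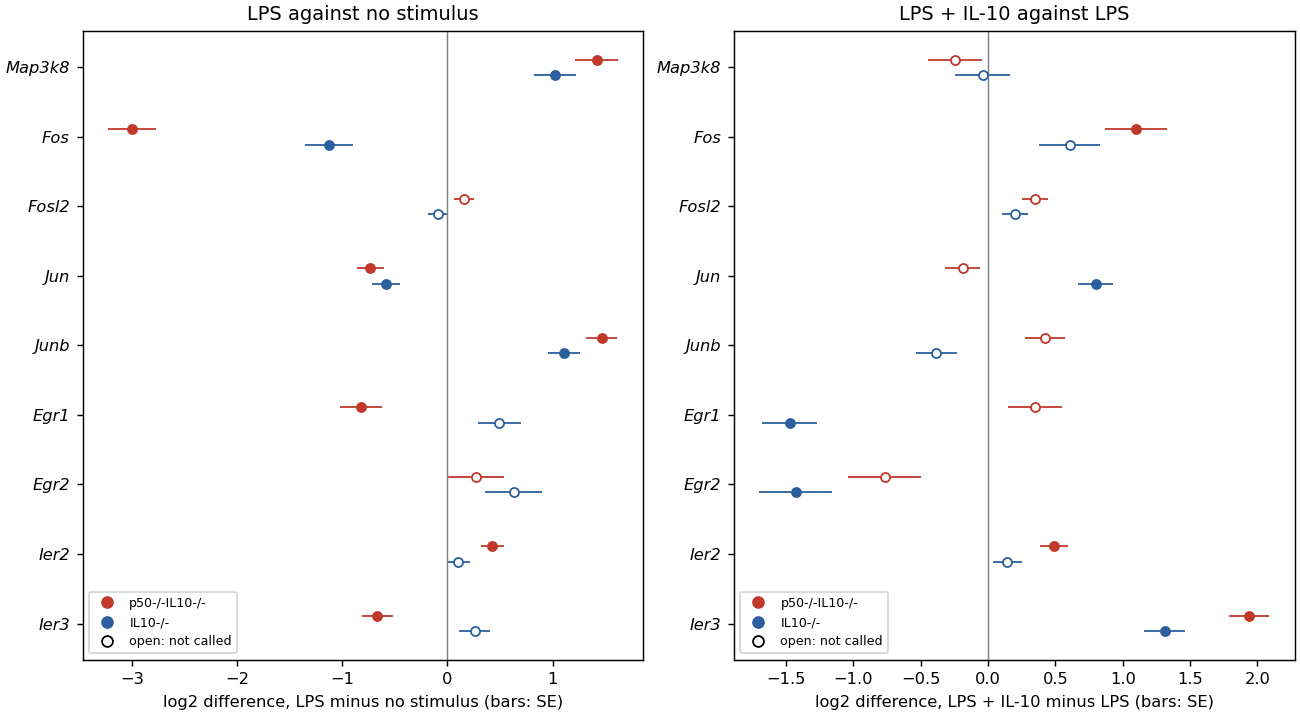
Log2 difference (x axes, bars are the SE) of each of the 9 genes (y axes) for LPS minus no stimulus (left) and LPS with IL-10 minus LPS (right), in p50-/-IL10-/- cells (red) and IL10-/- cells (blue); filled points were called by limma. The Fos response to LPS is much larger in p50-/-IL10-/- cells, and with IL-10 Egr1 is lower in IL10-/- cells alone.

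IL-10 added to LPS raised Ier3 in both genotypes, and the other members called were not the same in each. These differences use the same LPS arrays as the LPS responses above, so the pairs of values are not independent. Ier3 was 1.94 ± 0.15 log2 higher with IL-10 in p50-/-IL10-/- cells (3.83-fold, limma adjusted p = 7.16e-05) and 1.31 ± 0.15 log2 higher in IL10-/- cells (2.48-fold, adjusted p = 0.000516). In p50-/-IL10-/- cells Fos was 1.10 ± 0.23 log2 higher (adjusted p = 0.0198) and Ier2 was 0.49 ± 0.11 log2 higher (adjusted p = 0.0232). Even so, Fos in LPS with IL-10 stayed below its unstimulated level in both genotypes, with no overlap of arrays. The Fos call was lost when any 1 of its 4 arrays was left out, with adjusted p of 0.0582 to 0.13, and the Ier2 call without replicate 1 of the LPS (adjusted p = 0.163) or of the LPS with IL-10 arrays (adjusted p = 0.153).

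In IL10-/- cells Egr1 and Egr2 fell with IL-10, and Jun rose. Egr1 fell by 1.47 ± 0.20 log2 (2.78-fold, limma adjusted p = 0.00155) and Egr2 by 1.43 ± 0.27 log2 (2.69-fold, adjusted p = 0.0103). Jun was 0.80 ± 0.13 log2 higher (adjusted p = 0.00422). In p50-/-IL10-/- cells the differences were 0.35 ± 0.20 log2 for Egr1 (adjusted p = 0.335), -0.77 ± 0.27 log2 for Egr2 (adjusted p = 0.123) and -0.19 ± 0.13 log2 for Jun (adjusted p = 0.415). The genotype difference of the IL-10 effect was called for Egr1, at 1.82 ± 0.29 log2 (limma adjusted p = 0.0484), where 0.137% of all genes were called (0.0968% higher, 0.0403% lower). It was not called for Jun (-0.99 ± 0.18 log2, adjusted p = 0.0997) or Egr2 (0.66 ± 0.38 log2, adjusted p = 0.532). Without 1 array, 7 of 8 fits did not call the Egr1 test (adjusted p up to 0.228), while its value stayed between 1.55 and 2.09 log2. The Egr2 fall was lost without replicate 1 of the LPS with IL-10 arrays (adjusted p = 0.086). Fos in IL10-/- cells was 0.60 ± 0.23 log2 higher with IL-10 (adjusted p = 0.194), 1.02 log2 higher without replicate 1 of the LPS arrays (adjusted p = 0.0127) and 0.19 log2 higher without replicate 2, which was not called. By count, IL-10 raised 3 of the 9 genes and lowered 0 without p50 by limma (1 at an unadjusted p under 0.05), where 6.57% of all genes were called (3.7% higher, 2.87% lower). With p50 it raised 2 and lowered 2, where 6.17% of all genes were called (3.35% higher, 2.82% lower).

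Among the kinases around Map3k8, the count called between genotypes was near the share of all genes. Of 11 measured genes of the p105-Map3k8 complex and the ERK cascade, 0 were called without stimulus by limma (1 at an unadjusted p under 0.05), and 1 was called lower without p50 in LPS and in LPS with IL-10, where 6.72% and 10.4% of all genes were called lower. That gene was Ikbkg, a scaffold subunit of the kinase that triggers p105 degradation, at -0.52 ± 0.10 log2 in LPS (limma adjusted p = 0.00634). The list's median difference in LPS was -0.066 log2, against -0.021 log2 over all genes. Map2k1, which codes for a MEK, rose with LPS by 0.59 ± 0.13 log2 in p50-/-IL10-/- cells (limma adjusted p = 0.00468) and by 0.55 ± 0.13 log2 in IL10-/- cells (adjusted p = 0.0097). Among 12 measured ERK effector kinases and SRF or ETS factors, 1 was called lower in LPS, and 1 higher and 3 lower in LPS with IL-10. Of all genes, 6.72% were called lower in LPS, and 7.58% higher and 10.4% lower in LPS with IL-10. Mknk2, an ERK-activated kinase of the translation factor eIF4E, had 8.92 and 8.85 log2 in LPS with IL-10 in p50-/-IL10-/- arrays and 9.93 and 9.91 log2 in IL10-/- arrays (-1.03 ± 0.16 log2, adjusted p = 0.00177). Ets2, an ETS factor, was 0.53 ± 0.11 log2 higher there (adjusted p = 0.00706).

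Feedback inhibitors of ERK held a pair of genes, Dusp1 and Dusp6, that were lower without p50 in stimulated cells. Dusp6, a cytoplasmic phosphatase of ERK that ERK itself induces, had 5.89 and 5.73 log2 with LPS in p50-/-IL10-/- arrays and 7.73 and 7.39 log2 in IL10-/- arrays. Dusp1, a nuclear phosphatase of p38, JNK and ERK, had 8.12 and 8.15 log2 with LPS in p50-/-IL10-/- arrays and 10.11 and 9.83 log2 in IL10-/- arrays. Neither overlapped between genotypes. The LPS difference of Dusp6 was -1.75 ± 0.13 log2 (limma adjusted p = 2.8e-05), with p50-/-IL10-/- levels at about the lower quartile of the array, where differences are compressed. That of Dusp1 was -1.83 ± 0.12 log2 (adjusted p = 1.52e-05), and both were lower again in LPS with IL-10 (-1.85 ± 0.13 and -1.55 ± 0.12 log2, adjusted p = 1.79e-05 and 2.94e-05). Without stimulus 0 of the 10 measured inhibitors were called by limma (3 at an unadjusted p under 0.05). The LPS responses themselves differed by genotype, by -1.77 ± 0.17 log2 for Dusp1 (limma adjusted p = 0.00151) and by -1.30 ± 0.18 log2 for Dusp6 (adjusted p = 0.00939). Others of the list went the other way: Spry2, a Sprouty inhibitor of receptor signalling to Ras, was 0.79 ± 0.16 log2 higher without p50 in LPS (adjusted p = 0.00935). In LPS with IL-10 the phosphatase Dusp2 (0.88 ± 0.16 log2) and Spred2 (0.51 ± 0.08 log2) were higher (limma adjusted p = 0.00438 and 0.00261). In all, 1 was higher and 2 lower in LPS, and 2 were higher and 2 lower in LPS with IL-10. Of all genes, 5.66% were called higher and 6.72% lower in LPS, and 7.58% higher and 10.4% lower in LPS with IL-10.

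Other immediate early genes held members that were higher and members that were lower without p50. Of 27 measured, 2 were called higher and 1 lower unstimulated (1.26% and 1.31% of all genes), 4 higher and 5 lower in LPS (5.66% and 6.72% of all genes), and 7 higher and 1 lower in LPS with IL-10 (7.58% and 10.4% of all genes). Their median difference was -0.021, -0.14 and 0.18 log2 at those stimuli. Ier5, a relative of Ier2, had 8.35 and 8.21 log2 with LPS in p50-/-IL10-/- arrays and 9.83 and 9.73 log2 in IL10-/- arrays (-1.51 ± 0.11 log2, limma adjusted p = 2.65e-05). With LPS, Ier5 fell by 1.14 ± 0.11 log2 without p50 and rose by 0.56 ± 0.11 log2 with p50, and the difference of the responses was called (-1.70 ± 0.15 log2, adjusted p = 0.00151). Myc (-0.63 ± 0.12 log2, adjusted p = 0.00733) and the kinase gene Plk3 (-0.55 ± 0.11 log2, adjusted p = 0.00907) were also lower in LPS. The highest in LPS without p50 were Plk2 (1.25 ± 0.13 log2, limma adjusted p = 0.000247), the zinc finger factor Klf4 (1.20 ± 0.20 log2, adjusted p = 0.00363) and the small Maf factor Mafk (1.07 ± 0.14 log2, adjusted p = 0.000918). Plk2, a polo-like kinase, was higher at all 3 stimuli, with 10.15 and 10.62 log2 unstimulated in p50-/-IL10-/- arrays and 9.45 and 9.41 log2 in IL10-/- arrays. Nr4a1, a nuclear receptor gene, was lower unstimulated (-1.0 ± 0.11 log2, adjusted p = 0.00141), with 8.55 and 8.37 log2 in p50-/-IL10-/- arrays and 9.61 and 9.31 log2 in IL10-/- arrays. With LPS Nr4a1 was 7.88 and 7.96 log2 in p50-/-IL10-/- arrays and 8.07 and 8.20 log2 in IL10-/- arrays, so the gap was smaller there, and the LPS responses differed by 0.79 ± 0.16 log2 (adjusted p = 0.047).

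**Figure D5:**
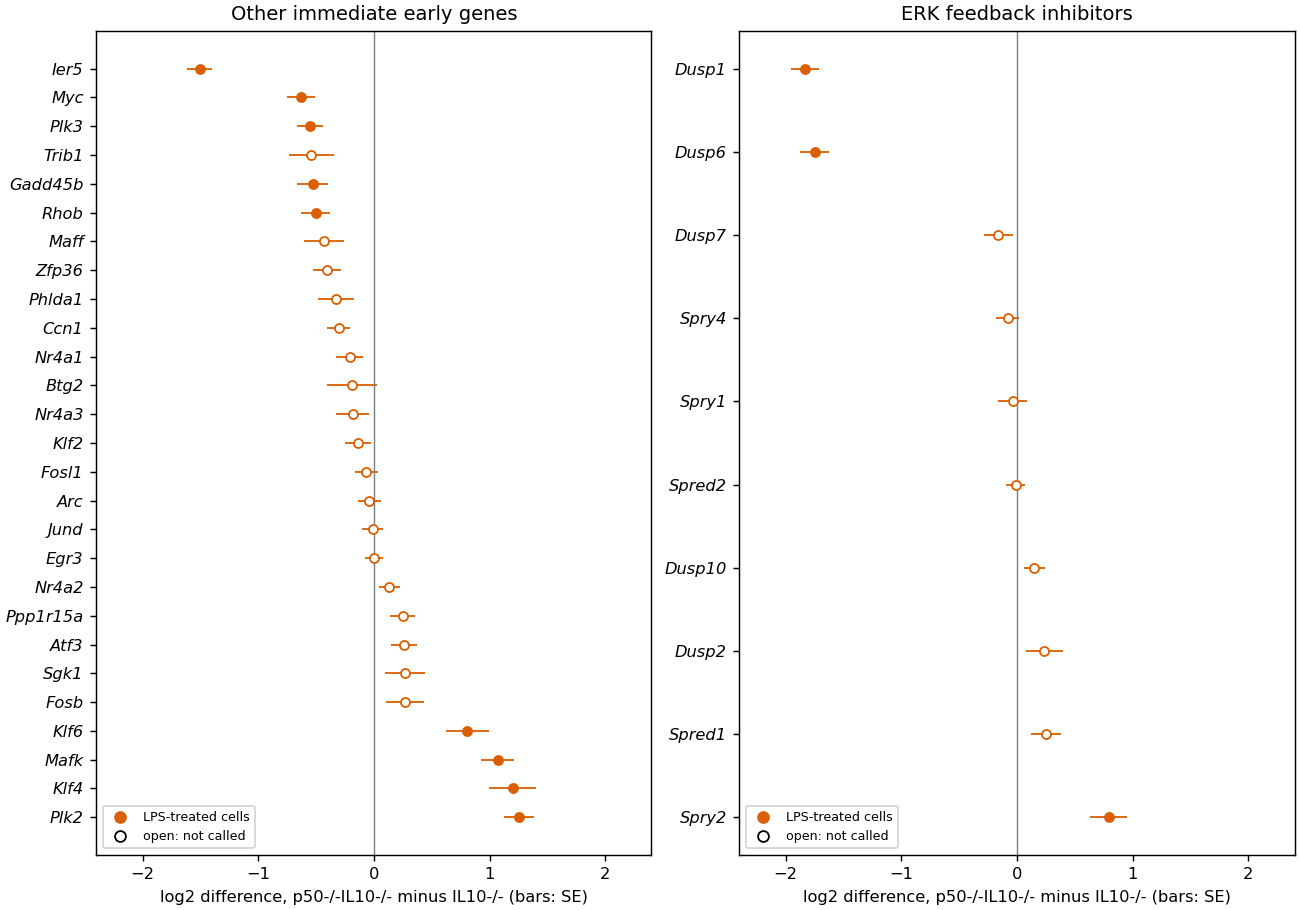
Log2 difference, p50-/-IL10-/- minus IL10-/- in LPS-treated cells (x axes, bars are the SE), of 27 other immediate early genes (left) and 10 ERK feedback inhibitors (right), sorted by value (y axes); filled points were called by limma. Ier5, Dusp1 and Dusp6 lie furthest below 0, and Plk2, Klf4, Mafk and Spry2 are among those called above 0.

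Kinases of the parallel JNK and p38 pathways were measured for 9 genes. Of all genes, 5.66% were called higher and 6.72% lower without p50 in LPS, and 7.58% higher and 10.4% lower in LPS with IL-10. In LPS 2 were called higher without p50 and 0 lower by limma (2 lower at an unadjusted p under 0.05), led by Map3k5 (the kinase ASK1) at 1.22 ± 0.11 log2 (limma adjusted p = 0.0001). In LPS with IL-10, 2 were higher and 2 lower, and the lower ones were Map3k1 (-0.90 ± 0.14 log2, adjusted p = 0.00213) and Mapk14, which codes for a p38 kinase (-0.54 ± 0.13 log2, adjusted p = 0.018). A further list held 10 macrophage genes reported elsewhere to depend on Map3k8 and ERK or to be restrained by them. Of these, 3 were called higher and 1 lower without p50 in LPS (5.66% and 6.72% of all genes). Il12b, a cytokine subunit gene that ERK is known to restrain, had 12.25 and 11.88 log2 in p50-/-IL10-/- arrays and 10.07 and 9.87 log2 in IL10-/- arrays (2.10 ± 0.21 log2, limma adjusted p = 0.000197). Ifnb1 (interferon beta), which Map3k8 is also known to restrain, was 1.30 ± 0.18 log2 higher in LPS (adjusted p = 0.00146). Ptgs2, a prostaglandin synthase gene that needs ERK in many cells, had 7.29 and 6.59 log2 in p50-/-IL10-/- arrays and 7.88 and 7.72 log2 in IL10-/- arrays (-0.86 ± 0.18 log2, adjusted p = 0.0122). In LPS with IL-10 Ptgs2 stood the other way, 1.22 ± 0.18 log2 higher without p50 (adjusted p = 0.00161). At that stimulus 7 of the 10 genes were called higher and 0 lower by limma (7.58% and 10.4% of all genes), with the same counts at an unadjusted p under 0.05. Il12b, Ifnb1 and Ptgs2 are examples, and not every called gene of the list is described. In LPS, 7 of its 10 differences were above 0 and 3 below, with a median of 0.30 log2. The list mixes genes reported to depend on the pathway and genes reported to be restrained by it, so no single direction applies. The part of ERK in these differences was not tested. Il10 is on this list too, but it is the gene knocked out in every group. The sources used here do not say where its probes lie relative to the deletion.

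The genes whose pattern over the 12 arrays was most like each member's were ranked among 1026 or 1027 genes whose 6 group means varied with an SD of at least 0.5 log2. Pearson's r is a description here, since the 12 arrays share 6 groups and a scaling. Fos was most like Tor4a (r = 0.982), Arrb2 (0.970) and Chst14 (0.963). Map3k8 was most like Nampt (r = 0.977), Hcar2 (0.975) and Rap2c (0.973). Junb was most like Relb (r = 0.971), Src (0.967) and Spred2 (0.963), and Ier3 like Plekhg2 (0.952), Tgfbi (0.951) and Pfkl (0.950). Fosl2, Jun and Ier2 varied less than that SD, so none of these 3 could be named as a match of another member. Egr1 had no close match, with Ier5 (r = 0.718), Ppfibp2 (0.698) and Gpr162 (0.698) at the top. Egr2 was most like Plk2 (r = 0.885), H2aw (0.877) and Rgs1 (0.868), and Ier2 like Stk40 (0.881), Kmt5a (0.860) and Rest (0.860). Jun was most like Neat1 (r = 0.829), Lpxn (0.809) and Gpr146 (0.806), and Fosl2, which varied little, like Saa1 (0.878), Stat3 (0.836) and Bcl3 (0.805).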

How the data were processed

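Gene expression was measured on 12 Affymetrix arrays, 1 per sample. The authors deposited a table of log2 values for 22690 probe sets, and RMA and limma are named in the submitters' processing notes, with versions not given in the sources used here. RMA corrects background, gives arrays a common distribution and compresses changes of dim genes. After leaving out 64 control probe sets, 20380 probe sets carried 1 symbol and were reduced to 12393 genes by the highest mean over all arrays. Another 691 carried several symbols and 1555 none.

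The comparisons used limma 3.58.1 (R 4.3.3), with 6 group means, 6 residual degrees of freedom and Benjamini-Hochberg adjustment over all genes of each of 10 contrasts. With 2 arrays a group, an exact permutation test could give no two-sided p under 0.333. Folds are 2 to the power of the log2 difference. The number of arrays limits the precision. The alternatives were each array left out, median centring, only the groups of a contrast, an intensity trend, probe set choice, a filter on dim genes and 2 kinds of replicate block.

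The members, 6 pathway lists (94 entries, 79 measured), 8 marker lists (48 entries, 42 measured) and motifs were chosen with earlier results of these data known. All members were named. From each pathway list, up to 3 called genes in each direction of each genotype difference and LPS response could be named. The text describes some of these and leaves out others, such as Atf3 and Spred1. The 3 genes most like each member were also named. Genes described for their response differences, IL-10 effects or as examples come from these.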

Additional observations from a re-analysis of the deposited data

Results flagged for a closer look

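The LPS response of Fos differed between the genotypes by -1.87 ± 0.32 log2 (limma adjusted p = 0.0239), by a direct test of the difference. As described above, this call depended on single arrays and was lost in 1 of 8 other settings. The value lay between -2.28 and -1.46 log2 with any 1 array left out. Both arrays of each LPS group lay below both unstimulated arrays of their genotype, and the fall was 7.99-fold in p50-/-IL10-/- cells and 2.18-fold in IL10-/- cells.

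The effect of IL-10 on Egr1 differed between the genotypes by 1.82 ± 0.29 log2 (limma adjusted p = 0.0484), by the same kind of test. That call also depended on single arrays and was lost in 4 of 8 other settings. The value lay between 1.55 and 2.09 log2 with any 1 array left out. Egr1 was 0.35 ± 0.20 log2 higher with IL-10 in p50-/-IL10-/- cells, which was not called, and fell by 1.47 ± 0.20 log2 in IL10-/- cells. With 2 arrays in each group, no group was large enough to look for single arrays that stand apart.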

How the results depend on the processing

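Of 37 calls among the members, 17 held in every fit made for them, including the lower Fos and Ier3 in LPS and in LPS with IL-10, the lower Egr1 in LPS and the higher Map3k8 and Junb with LPS without p50. The others lost their call in at least 1 fit, mostly with 1 array left out, which leaves 1 array in a group that is assumed to vary like the rest. The number of arrays limits the precision, and probe sets near the lower quartile, such as Dusp6 without p50, understate differences. The causes of the changes below were not tested.

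With only the groups of a contrast fitted, members called higher unstimulated numbered 0 (1 in the fit of all groups), with LPS in IL10-/- cells 1 were higher and 1 lower (2 and 2), with IL-10 in IL10-/- cells 1 was lower (2), and 0 had called differences of the LPS response or of the IL-10 effect (1 and 1). This setting could not be used for the average over stimuli, which takes all groups. Members called higher unstimulated were also 0 with the mean of probe sets and with all probe sets tested, those called higher in LPS were 1 with median centring, and the higher difference of the IL-10 effect was 0 with centring, with all probe sets and without genes under the lower quartile. With the mean of probe sets 1 member, Jun, was called lower in that test (0 otherwise). An intensity trend moved no count of called members by over 1.5 times. Counts that moved by no more than that are left out above. Among them, fitting only the groups of a contrast lost Ier2 unstimulated (limma adjusted p = 0.0707) and its rise with IL-10 without p50 (adjusted p = 0.0561). That setting also gained Map3k8, higher without p50 in LPS with IL-10 (adjusted p = 0.0285). Median centring gained a rise of Fosl2 with LPS without p50 (adjusted p = 0.0468).

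Deviations of same-numbered arrays correlated at r of 0.40, 0.59 and 0.59 among the IL10-/- groups, 0.28, -0.34 and -0.49 among the p50-/-IL10-/- groups and -0.32 to 0.30 across genotypes. Since not every pair went above 0.1, the numbers were not taken to pair samples over the design. With replicate number as a block, 2 members were called higher in LPS (0 without the block), Map3k8 (0.58 log2, limma adjusted p = 0.0476) and Jun (0.43 log2, adjusted p = 0.0444). In the difference of the LPS response 2 were lower (1 without the block), as Egr1 joined Fos (adjusted p = 0.0454), as it did with a random block within genotypes (2, consensus correlation 0.034). Neither block changed any other call of a member.

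With 1 array left out, the members called higher and lower were 0 and 0 to 1 unstimulated (1 and 3 with all arrays), 0 to 1 higher in LPS (0), 0 to 2 higher in LPS with IL-10 (2), 1 to 2 higher on average (2), 1 to 2 lower with LPS in IL10-/- cells (2), 1 to 2 higher with IL-10 in p50-/-IL10-/- cells (3), 1 to 2 lower with IL-10 in IL10-/- cells (2), 0 to 2 lower in the difference of the LPS response (1) and 0 to 1 higher in that of the IL-10 effect (1).

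No called value changed sign. Values near 0 that did were, with 1 array left out, the unstimulated difference of Map3k8 (-0.0251 to 0.38 log2) and Egr1 (-0.36 to 0.14 log2), the LPS difference of Fosl2 (-0.0878 to 0.0983 log2) and Junb (-0.18 to 0.0352 log2), the average of Fosl2 (-0.0590 to 0.00305 log2), the LPS response of Egr2 without p50 (-0.0270 to 0.56 log2), the IL-10 effect on Map3k8 with p50 (-0.42 to 0.33 log2), the difference of the LPS response of Jun (-0.31 to 0.00857 log2) and Egr2 (-0.73 to 0.00467 log2) and that of the IL-10 effect on Map3k8 (-0.58 to 0.17 log2). In other fits, the average of Jun was -0.00855 log2 with the mean of probe sets, and the LPS response of Fosl2 with p50 was 0.00172 log2 with median centring.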

Other observations

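In IL10-/- cells IL-10 also lowered immediate early genes other than the 9 members. Of 27 other immediate early genes measured, 5 fell and 2 rose in p50-/-IL10-/- cells, while 10 fell and 0 rose in IL10-/- cells (15 and 0 at an unadjusted p under 0.05 by limma), where 2.87% and 2.82% of all genes were called lower and 3.7% and 3.35% higher. The median differences were 0.11 log2 without p50 and -0.38 log2 with p50. Ppp1r15a, a stress-response regulator of translation, fell by 1.09 ± 0.11 log2 without p50 (limma adjusted p = 0.000323) and by 1.56 ± 0.11 log2 with p50 (adjusted p = 1.54e-05). Plk2 fell by 1.65 ± 0.13 log2 without p50 (limma adjusted p = 9.32e-05) and by 1.28 ± 0.13 log2 with p50 (adjusted p = 0.000295). In the test of the difference between genotypes 0 of the 27 genes were called by limma, and 9 passed an unadjusted p under 0.05, all with a higher difference without p50.

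Ptgs2 was the gene of the reported Map3k8 and ERK list whose IL-10 effect differed between genotypes, at 2.08 ± 0.26 log2 (limma adjusted p = 0.0115). It had 8.91 and 8.72 log2 in LPS with IL-10, against 7.29 and 6.59 log2 in LPS, in p50-/-IL10-/- arrays. In IL10-/- arrays it had 7.70 and 7.50 log2 in LPS with IL-10, against 7.88 and 7.72 log2 in LPS. IL-10 thus raised it without p50 (1.88 ± 0.18 log2, adjusted p = 0.000322), and the values with p50 lay close together (-0.20 ± 0.18 log2, adjusted p = 0.691).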
